A study of Mus musculus with 2 samples.

Results

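Excitation-contraction coupling is the step by which a muscle cell turns an electrical signal into contraction, and its core genes were followed here through single cells of a mouse culture that makes muscle. The 10 genes Cacna1s, Stac3, Ryr1, Ryr3, Jph2, Cav3, Casq1, Casq2, Atp2a1 and Atp2a2 were taken by their symbols from 26100 genes listed in both count matrices. All 10 were found in both. Their levels were read in classes of cells defined by UMIs (unique molecular identifiers, each marking 1 captured RNA molecule) of Myog, the regulator of muscle differentiation, and Ckm, the muscle creatine kinase.

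The study measured 2 cultures, each as 1 droplet library of the 10x Genomics 3′ assay. One, MEF, was of mouse embryonic fibroblasts in their usual medium. The other, iMPC, was of induced myogenic progenitors: such fibroblasts given MyoD together with a treatment labelled F/R/C, then grown in medium with F/R/C. Both groups carried the genotype Tg:Pax7-nGFP/C57BL6;DBA2, so the Pax7 reporter was present in the control as well, and the design text describes the iMPC culture as a single stable clone. With 1 library per group there was no replicate check and no test. All intervals are exact 95% intervals, and they cover counting error only.

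In the voltage-gated form of this process known from skeletal muscle, an action potential runs down the T-tubules, infoldings of the surface membrane. There the L-type calcium channel with its pore subunit Cacna1s senses the voltage and, with the adaptor Stac3, opens the ryanodine receptor Ryr1 in the facing membrane of the sarcoplasmic reticulum. Ryr3 is a second ryanodine receptor of developing muscle, junctophilin Jph2 holds the facing membranes together, and the muscle caveolin Cav3 is found in forming T-tubules. The calsequestrins Casq1 and Casq2 hold calcium inside the reticulum, and the SERCA pumps Atp2a1 and Atp2a2 bring it back. Atp2a2 is also the pump of cells outside muscle, and Casq2 is best known from heart and slow muscle.

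After filtering, 9349 iMPC cells (at least 8036 UMIs and at most 20% mitochondrial UMIs) held 232728796 UMIs with a median of 20846 per cell, and 6043 MEF cells held 118069653 UMIs with a median of 18929. The libraries shared 16 cell barcodes. Of the iMPC cells, 3238 held no UMI of Myog or Ckm, 2251 held 1 to 4 of Myog and 0 of Ckm (low-Myog cells), and 1724 held 5 or more of Myog with 0 or 1 of Ckm (Myog-high cells). A further 498 held 2 to 4 UMIs of Ckm (Ckm-low cells), 1037 held 5 or more (Ckm-high cells), and 601 fell in none of these classes. The classes differed in depth, with median UMIs per cell of 17584.5, 19341, 23857.5, 29408.5 and 42148 from the cells without Myog or Ckm to the Ckm-high cells. The share of cells marked as doublets was 1.08%, 2.22%, 7.77%, 10.2% and 8.58% in the same order. Levels are given as CPM, the UMIs of a gene summed over a class for each 1000000 UMIs of that class. The classes are cells of 1 culture taken at 1 point and sorted by 2 genes, so an order across them is an order of cells and not of times.

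Markers of other cell types were summed over the same classes. The 6 fibroblast markers summed to 4934 CPM in MEF, 671 CPM in iMPC cells without Myog or Ckm and 48.1 CPM in Ckm-high cells, and the 6 satellite cell markers to 258, 518 and 121 CPM. Myf5 was the 1 satellite cell marker at 0 in MEF. Cardiac muscle markers stayed between 0.813 and 3.54 CPM in MEF and the 5 iMPC classes, where 2 or 3 of the 6 were at 0 in 4 of them, so Casq2 was measured in cells nearly without heart markers. Endothelial markers stayed under 0.5 CPM, immune markers between 1.15 and 5.20 CPM and glial markers between 1.64 and 3.16 CPM. Smooth muscle markers summed to 9884 CPM in MEF and 612 to 902 CPM in the iMPC classes, and neuron markers to 25.9 and 33.9 to 79.2 CPM. Cycling markers summed to 459, 582, 374, 100.4 and 41.3 CPM from the cells without Myog or Ckm to the Ckm-high cells, and the part of any of these lists in the results was not tested. Myh3, the embryonic myosin, marked the same order at 0.0593 CPM in MEF and 34.7, 40.1, 755, 1510 and 2200 CPM in the 5 iMPC classes.

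Promoter sequence was at hand for 7 of the 10 genes in RefSeq's GRCm38.p6 table, in which Stac3, Ryr3 and Atp2a2 were missing. The 250 bases before the start are shown for Cav3 and Casq2, which ran most alike through the classes, and for Atp2a1 and Ryr1, which were found in cells without Myog. They lie at chr6:112459255-112459504 (plus strand), chr3:102086165-102086414 (plus), chr7:126463074-126463323 (minus) and chr7:29125152-29125401 (minus). The starts used, also for distances, are those of RefSeq. In GENCODE Atp2a1 and Ryr1 start at 126463108 and 29125179, inside their windows. Capitals mark each match of CANNTG, the E-box letters read by MyoD and myogenin, and of the MEF2 motif, both searched on both strands.
Cav3: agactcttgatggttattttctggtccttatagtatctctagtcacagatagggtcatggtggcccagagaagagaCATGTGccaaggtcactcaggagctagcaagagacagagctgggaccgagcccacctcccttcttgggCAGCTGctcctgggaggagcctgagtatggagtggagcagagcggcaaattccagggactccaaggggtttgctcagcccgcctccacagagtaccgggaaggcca
Casq2: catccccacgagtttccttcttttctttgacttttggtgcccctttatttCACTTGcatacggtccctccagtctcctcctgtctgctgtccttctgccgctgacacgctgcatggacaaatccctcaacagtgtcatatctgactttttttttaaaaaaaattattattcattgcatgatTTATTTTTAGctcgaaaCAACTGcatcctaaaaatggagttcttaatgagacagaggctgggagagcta
Atp2a1: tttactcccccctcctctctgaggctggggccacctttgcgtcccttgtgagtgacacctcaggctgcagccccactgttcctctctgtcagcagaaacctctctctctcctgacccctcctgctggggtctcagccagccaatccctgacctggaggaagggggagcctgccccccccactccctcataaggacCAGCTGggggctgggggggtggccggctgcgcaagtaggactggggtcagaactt
Ryr1: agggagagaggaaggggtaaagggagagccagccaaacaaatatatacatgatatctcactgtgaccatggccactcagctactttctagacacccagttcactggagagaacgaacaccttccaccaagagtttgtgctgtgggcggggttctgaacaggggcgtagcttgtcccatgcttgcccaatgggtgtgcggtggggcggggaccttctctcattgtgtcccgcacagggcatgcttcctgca
CAGCTG, the E-box form with GC in its middle and so a subset of CANNTG, was found for 5 of the 7 genes (Atp2a1, Cacna1s, Casq1, Cav3 and Jph2), against 13.0% of 32851 promoter windows of that length. It began 106 bases before the start in Cav3 and 55 bases before it in Atp2a1. CANNTG of any kind was found for 6 of 7 genes, against 66.2% of all windows. The MEF2 motif was found for 1 of 7, Casq2, against 2.92%. Members were counted by gene, with the overlapping windows of Jph2 taken as 1, while the background was counted by window. The Ryr1 window held none of these letters. These are matches of letters in a short window and no measure of binding.

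All 10 genes stood higher in Ckm-high cells than in MEF, and most were nearly absent from MEF. MEF held almost no UMIs of 7 of them: 0 of Cacna1s, 3 of Atp2a1, 4 of Cav3, 7 each of Casq1 and Casq2, 13 of Ryr1 and 22 of Ryr3 in 118069653. Stac3 stood at 1.19 CPM there. Jph2 at 13.8 CPM and Atp2a2 at 110 CPM were the 2 genes with a clear level in fibroblasts. Against MEF, Ckm-high cells were at least 2-fold higher in 9 of the 9 genes that reached 10 CPM, where 13.9% of 8424 genes were called higher by the same rule (at least 2-fold with at least 10 CPM in the higher class). The tenth, Ryr3, stood at 9.58 CPM in Ckm-high cells and under that minimum in each of these classes.

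**Figure D1:**
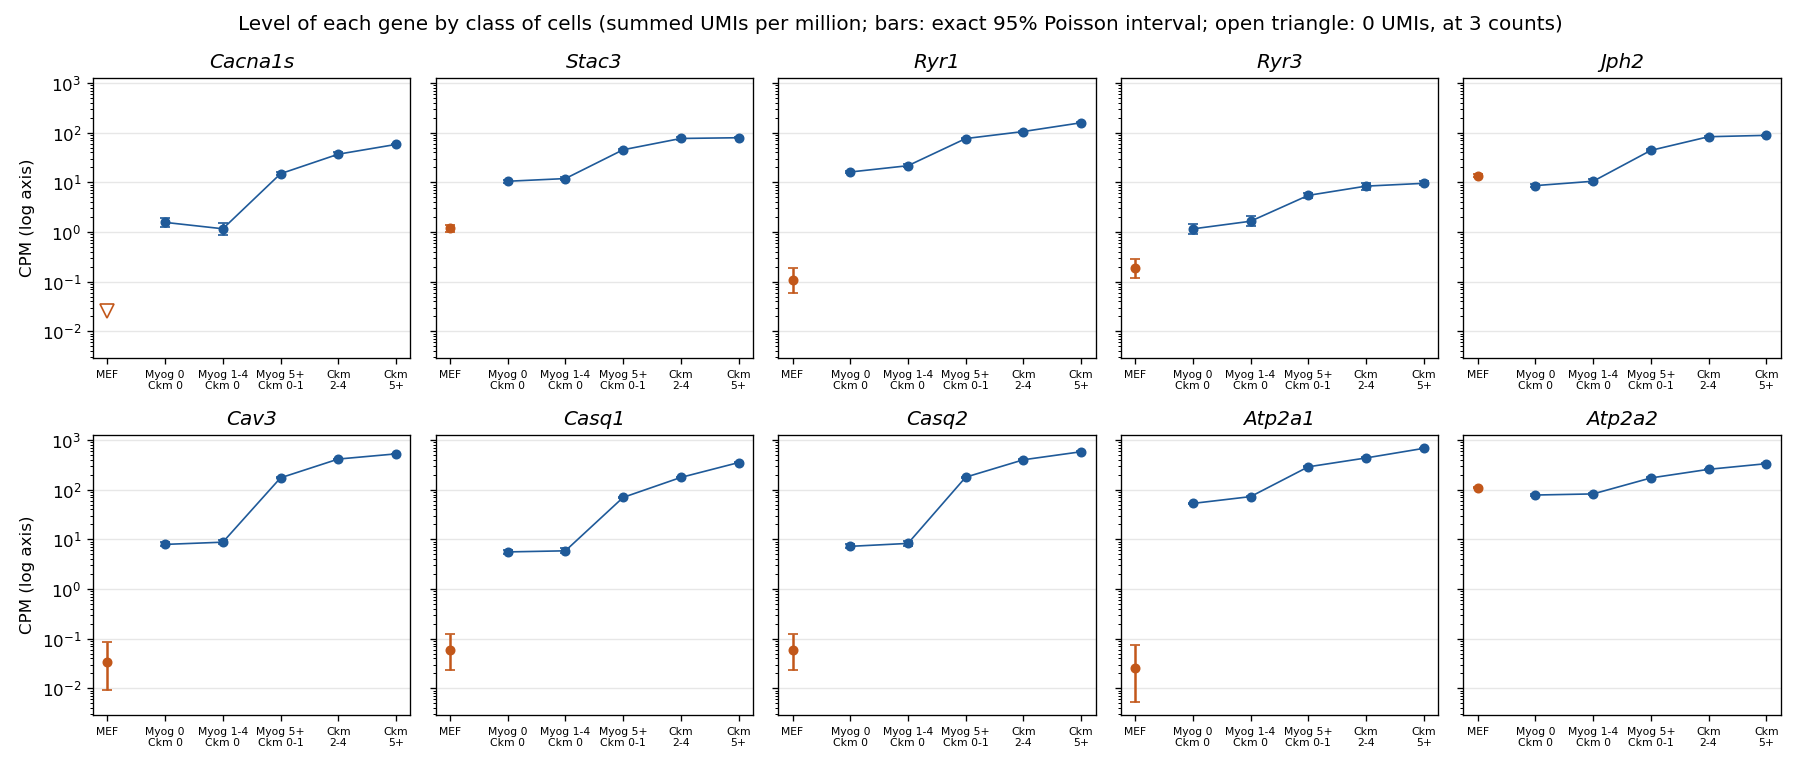
Level of each of the 10 genes (CPM, log axis) in MEF cells (orange) and in 5 classes of iMPC cells (blue), with exact 95% Poisson intervals for counting error. Cacna1s had 0 UMIs in MEF and is drawn as a triangle at the level of 3 counts (0.0254 CPM). Among the iMPC classes as drawn here, the largest step of each gene lies between low-Myog and Myog-high cells (of 3 of the 10 genes with classes from thinned cells), while Atp2a2 was already at 110 CPM in MEF.

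The voltage sensor and its adaptor differed in how late they were found. Cacna1s (ENSMUSG00000026407, chromosome 1, 136052750 to 136119822, GRCm38 as GENCODE annotates it, like all gene positions here) stood at 0 CPM in MEF and at 1.57, 1.16, 14.96, 37.0 and 58.1 CPM in the 5 iMPC classes from no Myog or Ckm to Ckm-high. It was low until Myog was high, and its 12.8-fold difference between Myog-high and low-Myog cells (9.75 to 17.2) rested on 55 UMIs in the lower class. With classes drawn after thinning each cell to 8000 UMIs, which moves cells between the classes, that difference was 2.10-fold and the one before it, from cells without Myog or Ckm to low-Myog cells, was 6.25-fold. Ckm-high cells were 2288-fold higher than MEF with the 0 of MEF set to 3 counts, and the exact interval begins at 1859-fold. Stac3 (ENSMUSG00000040287, chromosome 10, 127501686 to 127508823) stood at 1.19 CPM in MEF and at 10.5, 11.9, 45.4, 76.6 and 79.3 CPM in the same order. Both genes were thus above the MEF level in every iMPC class. The level of Stac3 in Ckm-high cells was 1.03-fold that in Ckm-low cells, with an interval of 0.971 to 1.10 that includes no difference. Cacna1s stood 1.57-fold higher at that last step (1.44 to 1.72).

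The release channels were unequal in UMIs in each iMPC class. Ryr1 (ENSMUSG00000030592, chromosome 7, 29003344 to 29125179) stood at 0.110 CPM in MEF and at 16.2, 21.7, 76.3, 106 and 159 CPM in the 5 iMPC classes. Ryr3 (ENSMUSG00000057378, chromosome 2, 112631355 to 113217096) stood at 0.186 CPM in MEF and at 1.16, 1.65, 5.48, 8.41 and 9.58 CPM. Ryr1 had more UMIs than Ryr3 in each iMPC class, though how well each is captured was not measured. In MEF the intervals of the pair overlapped. Ryr2, the ryanodine receptor of the heart, was at or under 0.0433 CPM in MEF and the 5 iMPC classes. At the 3′ side of Ryr3 the annotation places Aven on the opposite strand with an overlap, and whether the counting used strand is not given in the sources used here. Aven stood at 20.3 CPM in MEF, where Ryr3 had 22 UMIs.

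The junction genes stood apart from each other in where they were found. Jph2 (ENSMUSG00000017817, chromosome 2, 163336242 to 163397993) stood at 13.8 CPM in MEF, at 8.62 and 10.5 CPM in the cells without Myog or Ckm and the low-Myog cells, and at 44.1, 83.1 and 88.6 CPM in the next 3 classes. It was lower in the first iMPC classes than in MEF and 6.43-fold higher in Ckm-high cells than in MEF (6.08 to 6.82). Cav3 (ENSMUSG00000062694, chromosome 6, 112459505 to 112472872) stood at 0.0339 CPM in MEF and at 7.93, 8.79, 174, 414 and 527 CPM in the iMPC classes. Its difference between Myog-high and low-Myog cells was 19.8-fold (17.9 to 21.9), and a further 2.39-fold separated Ckm-low from Myog-high cells (2.31 to 2.46). With the thinned classes the first of these was 3.16-fold, after a 9.52-fold difference between low-Myog cells and cells without Myog or Ckm.

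From Myog-high cells on, the calsequestrins, like Cav3, stood higher in each class than in the one before it. Low-Myog cells stood over cells without Myog or Ckm 1.05-fold in Casq1 (0.895 to 1.24) and 1.15-fold in Casq2 (0.998 to 1.32). Cav3 stood at 1.11-fold there (0.970 to 1.27), and each of these intervals includes no difference. Casq1 (ENSMUSG00000007122, chromosome 1, 172209894 to 172219868) stood at 0.0593 CPM in MEF and at 5.60, 5.89, 70.0, 177 and 352 CPM in the iMPC classes. Casq2 (ENSMUSG00000027861, chromosome 3, 102086415 to 102146514) stood at the same 0.0593 CPM in MEF and at 7.24, 8.30, 179, 401 and 582 CPM. Between low-Myog and Myog-high cells Casq2 differed 21.6-fold (19.5 to 23.9) and Casq1 11.9-fold (10.5 to 13.5). With the thinned classes these were 2.49-fold and 1.44-fold, and the differences at the step before were 9.44-fold and 7.54-fold, so the step at which these genes stood apart depends on how the classes are drawn. Casq1 had the largest between Ckm-high and Ckm-low cells, 1.99-fold (1.91 to 2.07).

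The pumps held the highest levels among the 10 in the cells without Myog. Atp2a1 (ENSMUSG00000030730, chromosome 7, 126445858 to 126463108) stood at 0.0254 CPM in MEF, from 3 UMIs, and at 53.0, 72.6, 289, 436 and 681 CPM in the iMPC classes. Atp2a2 (ENSMUSG00000029467, chromosome 5, 122453513 to 122502225) stood at 110 CPM in MEF and at 78.2, 82.3, 173, 257 and 335 CPM. Atp2a2 had the smallest ratio of the 10 between Ckm-high and low-Myog cells, 4.06-fold (3.92 to 4.21). Rabep2 overlaps the 3′ end of Atp2a1 on the opposite strand. It stood at 10.2 CPM in MEF and 7.93 CPM in Ckm-high cells, where Atp2a1 stood at 0.0254 and 681 CPM.

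Over all 10 genes, the median log2 ratio between neighbouring iMPC classes was 0.19, 2.03, 0.83 and 0.46 from the first step to the last. Between cells without Myog or Ckm and low-Myog cells, 0 of the 5 genes at 10 CPM were called higher, where 0.0131% of 7640 genes were, and the median log2 ratio of those 5 was 0.29 against 0.02 over all genes tested. Atp2a1 was 1.37-fold higher there (1.31 to 1.44) and Ryr1 1.34-fold (1.23 to 1.46). The count depends on how the classes are drawn: with Myog and Ckm counted after thinning each cell to 8000 UMIs, 8 members were called higher at that step, and 3 of the 10 genes, Stac3, Jph2 and Atp2a2, had their largest difference at the next one. In the other 9 alternatives all 10 genes had it there. Between low-Myog and Myog-high cells, 9 of 9 were called higher, where 6.42% of 7913 genes were, and the median log2 ratio of those 9 was 2.06 against -0.15. With the thinned classes Ryr1, Casq1 and Atp2a2 were under the fold of 2 there, at 1.94-fold, 1.44-fold and 1.74-fold. Between Myog-high and Ckm-low cells, 4 of 9 were called higher, where 2.85% of 7231 genes were. These were Cacna1s, Cav3, Casq1 and Casq2, and the count was 2 with the thinned classes. Between Ckm-low and Ckm-high cells, 0 of 9 were called higher, where 0.649% of 6778 genes were, and Casq1 came closest at 1.99-fold. The fold of 2 decides these counts, since 7 and 4 of the members were higher at the last 2 steps by 1.5-fold. The shares over all genes are for the reported classes at a fold of 2. Member counts with the thinned classes or at 1.5-fold stand without such a share.

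To order the genes, each level was written as a percent of the level in Ckm-high cells. In Myog-high cells Stac3 stood at 57.2% (54.3 to 60.4), Ryr3 at 57.2% (48.9 to 66.8), Atp2a2 at 51.6%, Jph2 at 49.8% and Ryr1 at 48.0%, and each interval in this group overlapped the next. Atp2a1 followed at 42.5% (41.6 to 43.3), Cav3 at 32.9% (32.1 to 33.8), Casq2 at 30.8% (30.0 to 31.5), Cacna1s at 25.7% (23.6 to 28.0) and Casq1 at 19.9% (19.2 to 20.7), and from Ryr1 downward no interval overlapped the next. These intervals treat each UMI as independent and leave out the spread between cells. In Myog-high cells thinned to 5000 UMIs, Cav3 was found in 26.6%, against 50.2% with its UMIs spread evenly. For Casq2 these shares were 25.4% and 48.9%, and for Casq1 11.9% and 22.9%. With the mean of each cell's CPM, Cav3 stood at 25.7% and Casq2 at 24.9% of the Ckm-high level. The level of 10% was first met in cells without Myog or Ckm by Stac3, Ryr3, Atp2a2 and Ryr1, in low-Myog cells by Jph2 and Atp2a1, and in Myog-high cells by Cav3, Casq2, Cacna1s and Casq1. These first classes also depend on the setting: with the thinned classes 4 genes met 10% in cells without Myog or Ckm and the other 6 in low-Myog cells, Cav3, Casq2, Cacna1s and Casq1 among them at 17.4%, 18.2%, 16.7% and 14.3%. With free RNA subtracted at 10% of a cell's UMIs, 8 genes first met it in Myog-high cells. Casq1 was lowest in Myog-high cells and Cacna1s second lowest in all 10 alternatives run on this order. With the thinned classes Cav3 reached 55.1% and Casq2 45.3%, above Ryr1 at 44.2% and Atp2a1 at 41.5%, so the place of Cav3 and Casq2 relative to those genes depends on how the classes are drawn.

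Within Myog-high cells the genes parted further when cells were split by Myog UMIs, a split chosen after seeing the data. Stac3 stood at 34.0%, 42.0%, 58.7% and 73.9% of its Ckm-high level in cells with 5 to 9, 10 to 19, 20 to 49 and 50 or more Myog UMIs. Jph2 stood at 25.3%, 31.3%, 51.7% and 68.3%, and Ryr3 at 30.3%, 37.5%, 55.6% and 82.4%. These 3 were higher in each bin than in the one before, though intervals overlapped between the first 2 bins of Stac3 and Jph2 and between all neighbouring bins of Ryr3. Casq1 stood at 11.6%, 27.4%, 24.3% and 12.9%, so the 430 cells with the most Myog were near its lowest bin. Cacna1s stood at 10.6%, 28.9%, 31.4% and 22.4%, and Casq2 at 13.7%, 32.5%, 35.2% and 30.8%. Cav3 stood at 8.46%, 26.4%, 37.2% and 41.1%, and differed from Casq2 in that its last bin was its highest. At the other end, in 68 cells with 50 or more Ckm UMIs, Casq1 stood at 154% of the Ckm-high level, Atp2a1 at 139%, Ryr1 at 138% and Cacna1s at 128%, while Jph2 stood at 100.3% and Casq2 at 100.5%. Ryr3 stood at 161% there, from 64 UMIs (122 to 209).

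**Figure D2:**
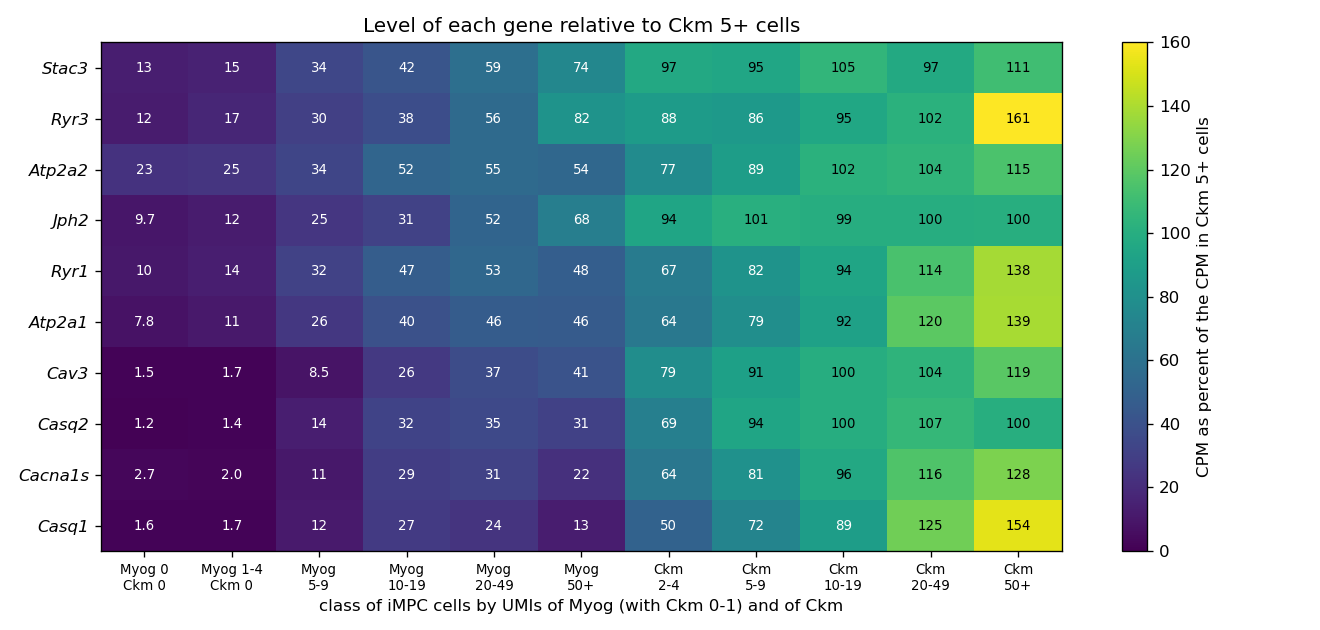
Level of each gene as percent of its level in Ckm-high cells, in iMPC classes from no Myog or Ckm (left) to 50 or more Ckm UMIs (right), with genes ordered by their value in all Myog-high cells. Stac3, Ryr3 and Jph2 stand at 68% to 82% in the cells with 50 or more Myog UMIs, where Casq1 stands at 13%.

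The paralog pairs differed in balance across the same classes. UMIs are counted at the 3′ end, and how well each paralog is captured was not measured, so a share is of UMIs and only its difference between classes is read. Casq2 held 56.4% of the UMIs of both calsequestrins in cells without Myog or Ckm (52.9 to 59.9), 71.9% in Myog-high cells (71.1 to 72.7), 69.4% in Ckm-low cells and 62.3% in Ckm-high cells (61.9 to 62.8). In the cells without Myog or Ckm both genes were low, at 7.24 CPM for Casq2 and 5.60 CPM for Casq1. The Casq2 share in iMPC barcodes of 200 to 600 UMIs, read further below, was 54.3% (53.2 to 55.5), which overlaps the share in those cells. The part of free RNA in that share was not tested. In the finer bins the Casq2 share stood at 79.8% with 50 or more Myog UMIs (78.4 to 81.3) and at 52.0% with 50 or more Ckm UMIs (50.5 to 53.4). The Casq2 share was thus higher where Myog was highest and lower where Ckm was highest.

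Atp2a2 had 13004 UMIs in MEF and Atp2a1 had 3, so the pair was counted apart there. It held 84.1% in iMPC cells with 5 or more UMIs of the fibroblast gene Dcn (81.5 to 86.5), 59.6% in cells without Myog or Ckm, 53.1% in low-Myog cells, 37.4% in Myog-high cells, 37.1% in Ckm-low cells and 32.9% in Ckm-high cells (32.5 to 33.4). With 50 or more Ckm UMIs it stood at 28.9% (27.7 to 30.1). The share of the fast pump was thus larger in each class, except that Myog-high and Ckm-low cells had overlapping intervals. Ryr3 held 6.70% of the UMIs of both release channels in Myog-high cells (5.92 to 7.54) and 5.69% in Ckm-high cells (5.20 to 6.21), and reached 9.39% in cells with 50 or more Myog UMIs (7.75 to 11.3). Its share in MEF was 62.9%, from 35 UMIs in all.

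**Figure D3:**
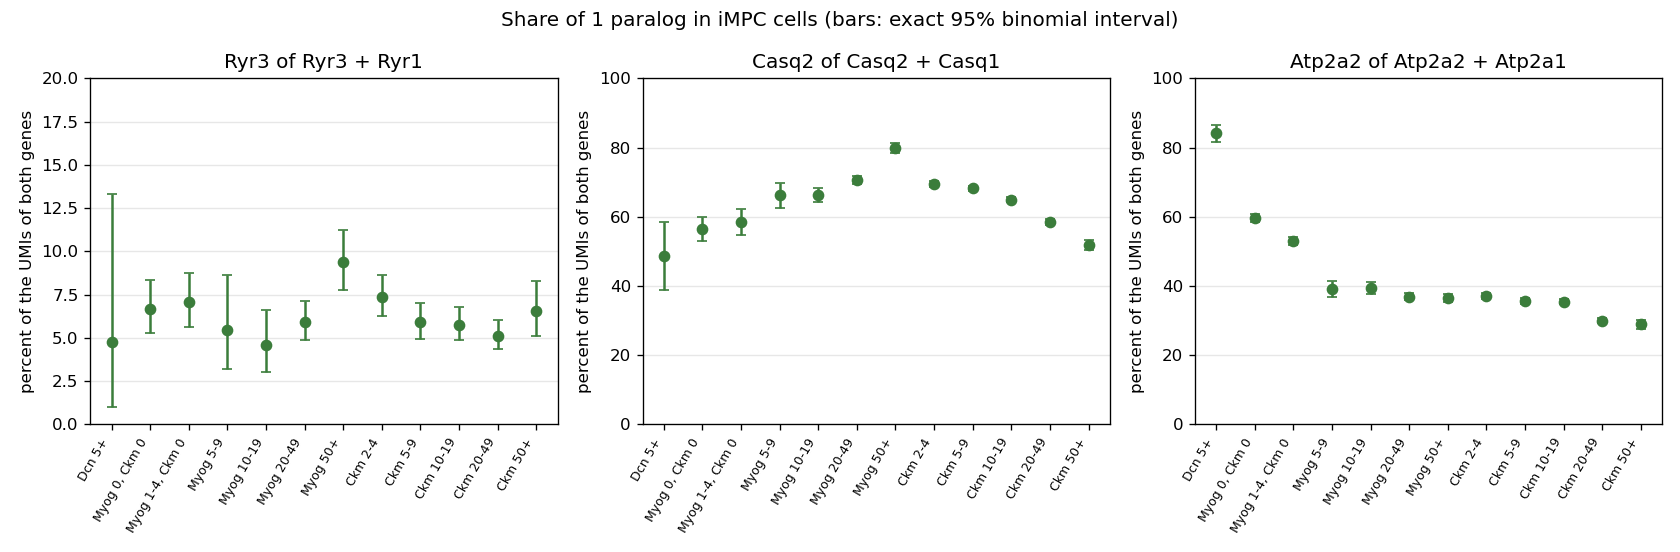
Share of 1 paralog in the UMIs of its pair (percent, with exact 95% binomial intervals) in iMPC classes from Dcn 5 or more to Ckm 50 or more. The Casq2 share is highest at 79.8% with 50 or more Myog UMIs and 52.0% with 50 or more Ckm UMIs, and the Atp2a2 share runs from 84.1% to 28.9%. The axis of the Ryr3 panel ends at 20%.

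Cells were thinned to 5000 UMIs each before shares of cells were read, which left out 284 MEF cells and no iMPC cell. Atp2a1 was found in 0.0174% of MEF cells and in 20.4%, 26.9%, 67.9%, 74.9% and 90.5% of the 5 iMPC classes, and Atp2a2 in 39.4% of MEF cells and in 29.9%, 31.0%, 49.9%, 64.3% and 76.2%. Casq2 was found in 3.95%, 3.29%, 25.4%, 59.0% and 86.5% of the iMPC classes, Cav3 in 3.80%, 4.13%, 26.6%, 61.4% and 82.4%, and Casq1 in 3.09%, 2.62%, 11.9%, 31.5% and 55.8%. As a background, 503 iMPC cells with 5 or more Dcn UMIs were taken with at most 4 Myog and 1 Ckm UMIs, at a median of 17648 UMIs, and their fibroblast markers summed to 2734 CPM. In these cells Casq2 was found in 1.99%, Cav3 in 4.37% and Casq1 in 3.38%. The shares of Cav3 and Casq1 in the first 2 iMPC classes are at or near that background. The intervals of Casq2 overlapped there too.

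Cacna1s was found in 0.957%, 0.533%, 4.002%, 12.7% and 24.2% of the iMPC classes and in 1.19% of the Dcn cells, and in 0 of 5759 MEF cells, which allows a share of up to 0.0521%. Stac3 was found in 5.78%, 6.13%, 18.2%, 29.9% and 32.9%, Jph2 in 4.14%, 4.80%, 17.8%, 31.7% and 33.8%, and Ryr1 in 7.94%, 10.4%, 28.5%, 39.8% and 50.9%. Ryr3 stayed under 5% in each class, with 4.63% in Ckm-high cells. Without thinning, Ckm-high cells held a UMI of Ryr3 in 32.6%, of Cacna1s in 74.4%, of Casq1 in 75.2% and of the other 7 genes in 91.0% to 99.5%, at a median of 42148 UMIs. MEF cells unthinned, at a median of 18929 UMIs, held Atp2a2 in 75.6%, Jph2 in 18.3%, Stac3 in 2.25% and the other 7 in under 0.35%.

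Some genes were concentrated in fewer cells than others of a similar level. In Myog-high cells at 5000 UMIs, Cav3 averaged 0.697 UMIs per cell and was found in 26.6% of cells, while Atp2a2 averaged 0.806 and was found in 49.9%. Casq2 averaged 0.671 and was found in 25.4%. Casq1 averaged 0.260 and was found in 11.9%, while Stac3 averaged 0.212 and was found in 18.2%. Cav3 and the calsequestrins were thus held by fewer cells with more UMIs each. The same cells held them together: Casq2 was found in 65.4% of the 459 Myog-high cells with a Cav3 UMI (60.8 to 69.7) and in 10.9% of the 1265 without (9.24 to 12.8). For Casq1 the shares were 35.1% and 3.48%, and for Cacna1s 12.2% and 1.03%. Atp2a1 differed less, at 79.3% and 63.7%, and Ryr3 had overlapping intervals at 1.96% and 2.53%. Of the Myog-high cells 7.77% were marked as doublets, and the part of doublets in this overlap was not tested.

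The number of the 10 genes found in a thinned cell had a median of 0 in MEF, 1 in cells without Myog or Ckm and in low-Myog cells, 2 in Myog-high, 4 in Ckm-low and 5 in Ckm-high cells. At least 5 of the 10 were found in 0.185%, 0.355%, 15.5%, 43.8% and 74.3% of the iMPC classes and in 0% of MEF cells. No cell thinned to 5000 UMIs held all 10. Without thinning, 228 of the 1037 Ckm-high cells (21.99%) and 34 of the 1724 Myog-high cells (1.97%) did.

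**Figure D4:**
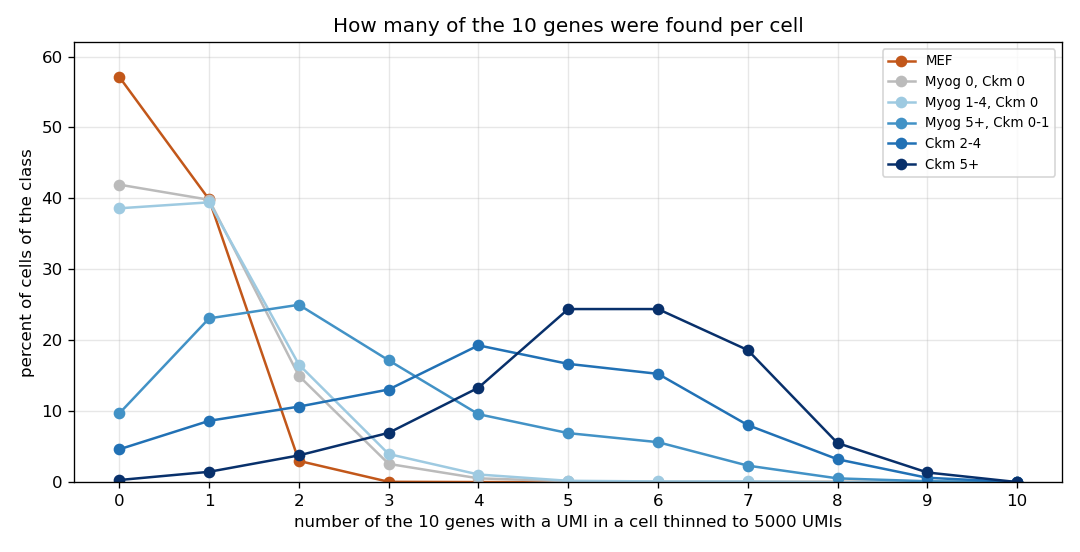
Percent of cells of each class (vertical axis) by the number of the 10 genes with a UMI after thinning to 5000 UMIs (horizontal axis). MEF and the first 2 iMPC classes peak at 0 or 1 gene, and Ckm-high cells peak at 5 and 6 genes with 24.4% of cells each.

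Cells without Myog or Ckm were then split, after seeing the data, by Dcn (5 or more UMIs, 301 cells), then Pax7, the satellite cell regulator (2 or more UMIs, 1118 cells), then Myod1 (2 or more UMIs, 462 cells). Atp2a1 stood at 65.5 CPM in the Pax7 cells (62.2 to 68.8) and 73.1 CPM in the Myod1 cells, against 13.6 CPM in the Dcn cells (10.7 to 16.9). Ryr1 stood at 18.5 and 22.5 CPM against 5.67 CPM. Stac3 stood at 9.96 and 18.5 CPM against 4.81 CPM, and Ryr3 at 1.53 and 1.74 CPM against 0.172 CPM, the last from 1 UMI. All 4 were higher in Pax7 and in Myod1 cells than in Dcn cells, with intervals of the ratio that exclude no difference. The other 1357 cells, in none of these groups, stood at 42.7 CPM in Atp2a1, 14.1 CPM in Ryr1 and 9.62 CPM in Stac3. Levels of these genes above those of the Dcn cells were thus not limited to the Pax7 and Myod1 cells. Ryr3 stood at 0.816 CPM there, with an interval that overlapped that of the Dcn cells.

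Between Pax7 and Dcn cells the other members stood closer together. Cav3 stood at 6.27 CPM in the Pax7 cells and 7.91 CPM in the Dcn cells, Casq1 at 4.32 and 6.19 CPM, Casq2 at 5.98 and 5.67 CPM, Cacna1s at 1.44 and 1.89 CPM and Jph2 at 9.11 and 8.25 CPM, and the interval of each of these ratios includes no difference. Atp2a2 was 1.15-fold higher in the Pax7 cells (1.04 to 1.29). The Myod1 cells stood above the Pax7 cells 1.59-fold in Cav3 (1.21 to 2.09), 1.69-fold in Casq1 (1.22 to 2.34) and 1.46-fold in Casq2 (1.09 to 1.94). Of the 3 members at 10 CPM, 2 were called higher in Pax7 than in Dcn cells, Ryr1 at 3.27-fold (2.29 to 4.81) and Atp2a1 at 4.82-fold (3.84 to 6.12), where 11.2% of 8237 genes were. The Pax7 and Dcn cells had median UMIs of 19483.5 and 17648, and doublet marks on 1.52% and 0.997%. With marked doublets removed Atp2a1 stood at 65.8 and 13.6 CPM and Ryr1 at 18.9 and 5.39 CPM, and with a minimum of 12000 UMIs they stood at 65.8 and 13.8 CPM and at 18.0 and 5.91 CPM. Rabep2, the gene that overlaps Atp2a1, stood the other way, at 13.4 CPM in the Pax7 and 38.2 CPM in the Dcn cells.

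Droplets also catch RNA that floats free in the suspension, so the same levels were set against iMPC barcodes of 200 to 600 UMIs. These barcodes lie under the UMI minimum set for an iMPC cell. Whether they hold only free RNA, or cells with little RNA as well, was not tested. In these barcodes Atp2a1 stood at 338 CPM, Cav3 at 280 CPM, Casq2 at 186 CPM, Casq1 at 156 CPM and Ryr1 at 65.4 CPM. In the Dcn cells Cav3 stood at 2.82% of that level, Casq2 at 3.06%, Casq1 at 3.96%, Atp2a1 at 4.01% and Cacna1s at 6.17%, with Ryr1 at 8.67% and Stac3 at 8.85%. In the Pax7 cells Cav3 stood at 2.24%, Casq1 at 2.77% and Casq2 at 3.22%, while Atp2a1 stood at 19.4% (18.3 to 20.4), Stac3 at 18.3%, Ryr1 at 28.3% (25.4 to 31.5) and Ryr3 at 40.05%, from 36 UMIs. Both groups are divided by the same level, so this scale leaves the ratios between Pax7 and Dcn cells unchanged and is no second comparison. The intervals of Atp2a1, Ryr1, Stac3 and Ryr3 lay apart between these cells, while those of Cav3, Casq1 and Casq2 overlapped. The part of free RNA in these levels was not tested. After thinning, Atp2a1 was found in 26.0% of the Pax7 cells (23.5 to 28.7) and in 5.65% of the Dcn cells (3.32 to 8.89), and Ryr1 in 10.4% and 2.33%.

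**Figure D5:**
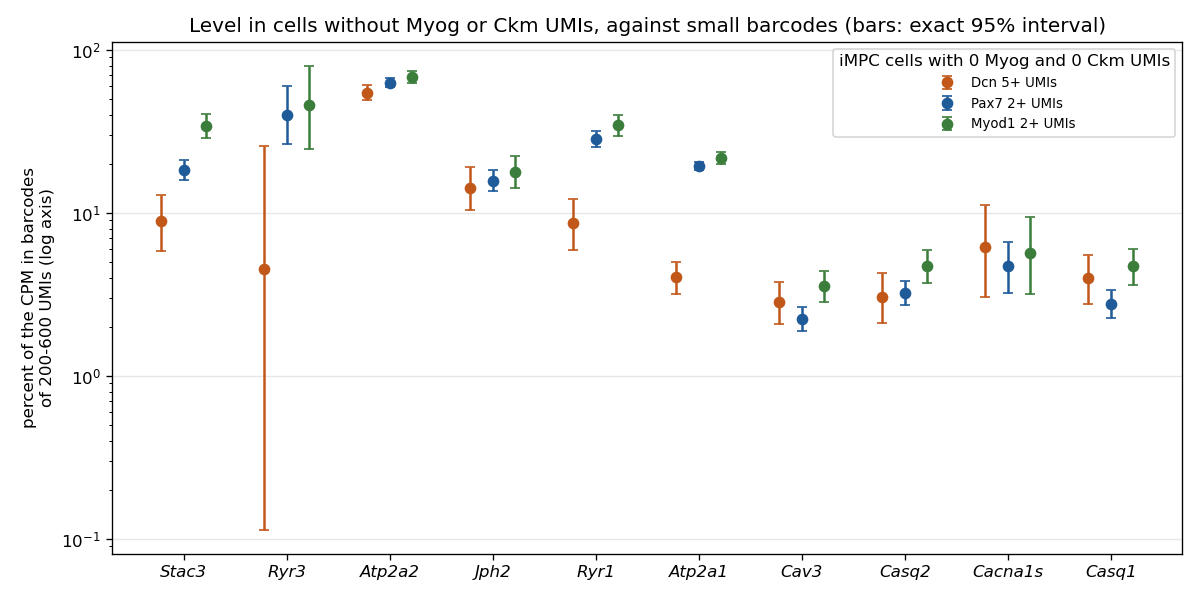
Level of each gene in iMPC cells without Myog or Ckm UMIs, as percent of its level in barcodes of 200 to 600 UMIs (log axis, exact 95% intervals), for cells with Dcn (orange), Pax7 (blue) and Myod1 (green). Atp2a1 stands at 4.01% with Dcn and 19.4% with Pax7, while Cav3, Casq1, Casq2 and Cacna1s stand within 2.24% to 6.17% in all 3 groups.

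A list of 42 further genes of calcium handling was read by the same rule. At the step from low-Myog to Myog-high cells, 19 of the 30 at 10 CPM were called higher, where 6.42% of all genes were. At the step before, 0 of 23 were called higher (0.0131% of all genes), and at the step after, 6 of 30 (2.85%). At the last step 1 of 30 was, the calcium buffer Pvalb (0.649%). Against MEF, 24 of 34 were higher in Ckm-high cells (13.9%).

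Among partners of the voltage sensor, the channel subunit Cacng1 stood at 0.0339 CPM in MEF, 15.2 CPM in low-Myog, 127 CPM in Myog-high and 387 CPM in Ckm-high cells. Fkbp1a, the FK506-binding protein of ryanodine receptors and of many cells, was at 707 CPM in MEF and 288 to 348 CPM in the iMPC classes. In the lumen and junction of the reticulum, 6 of 7 were higher in Myog-high cells, among them the calsequestrin anchor Trdn (6.86 CPM in low-Myog and 98.5 CPM in Myog-high cells) and Srl (8.28 and 115 CPM). Jsrp1, a junction protein, was unlike these in its 67.8 CPM in the cells without Myog or Ckm. Of the T-tubule genes, Bin1 stood at 229 and 683 CPM and Cavin4 at 12.8 and 116 CPM in low-Myog and Myog-high cells, while Cav1, the caveolin of non-muscle cells, was lower, at 168 and 47.9 CPM.

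The small pump inhibitors differed in where they stood. Sln (sarcolipin) was at 2.10 CPM in low-Myog and 53.2 CPM in Myog-high cells, and Mrln (myoregulin) at 17.5 and 53.8 CPM, while Pln (phospholamban, the inhibitor of the heart) did not pass 2.26 CPM. The surface pump Atp2b1 stayed between 247 and 270 CPM in the iMPC classes. For store refilling, Orai1 stood at 10.6 and 76.6 CPM and Stim2 at 21.8 and 43.7 CPM in low-Myog and Myog-high cells, and Stim1 at 8.96 and 15.2 CPM, which is under 2-fold. The troponin subunits that bind calcium, Tnnc1 and Tnnc2, stood at 134 and 212 CPM in low-Myog and 1619 and 2203 CPM in Myog-high cells, and the calcium sensor Calm3 at 213 and 158 CPM. In the split of cells without Myog or Ckm, 3 of 24 list genes were called higher in Pax7 than in Dcn cells: Cacng1 (14.8 and 6.02 CPM), Jsrp1 (75.7 and 14.6 CPM) and Mrln (17.2 and 3.61 CPM). That share is near the 11.2% of all genes called in this comparison.

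The gene whose profile over MEF and the 5 iMPC classes lay nearest to each member was found among 6940 genes with at least 20 CPM in some class, by the root mean square difference of centred log2(CPM + 1) values over these 6 classes. Casq1 lay nearest to Pgam2, the muscle phosphoglycerate mutase, at 0.11, and Cacna1s to the M-band gene Myom1 at 0.12. Cav3 and Casq2 both lay nearest to Csrp3, a muscle LIM protein, at 0.18 and 0.23, and to each other at 0.09, the closest of the 45 pairs of members. Ryr1 lay nearest to Mrln at 0.16, Stac3 to B3galt2 at 0.14, Jph2 to Arhgap28 at 0.13 and Ryr3 to Arl6ip5 at 0.11. Atp2a2 lay nearest to Mamdc2 at 0.04 and Atp2a1 to Neb, the thin-filament protein nebulin, at 0.36. The 6 classes come from 2 libraries and share their depth order, so these distances are a description.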

How the data were processed

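Values in the deposited matrices are raw UMI counts of a gene in a barcode, and the file headers name Cell Ranger. Cell Ranger 4.0, Seurat 3.2.3 and the build GRCm38.p6 are named in the submitters' processing notes, with no role given. All 6794880 listed barcodes stand in the iMPC matrix, which holds 282903287 UMIs and no choice of cells. In the MEF matrix 6113 barcodes remain, the smallest with 503 UMIs, and how these were selected is not given in the sources used here. The MEF label repeats the treatment text of the iMPC culture, while its own treatment field names fibroblast medium, which was used. The MEF matrix lists 24 further genes with 0.209% of its UMIs, which were dropped.

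The 10 genes, the classes, the list of 42 genes and the cell type markers were chosen with earlier results of these data known. The iMPC minimum of 8036 UMIs lies above 10% of the 99th percentile over the largest barcodes. Cells with over 20% mitochondrial UMIs were removed, and doublets were kept. Scrublet marked 377 iMPC cells (4.03%) but only 2 MEF cells, so in the alternative without doublets the 244 highest MEF scores were removed as well.

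Counts were summed per class and scaled to CPM. Sums carry exact Poisson intervals, ratios exact conditional ones and shares exact binomial (Clopper-Pearson) ones, at 95%. A sum of 0 was set to 3 counts for the value of a ratio, while the exact interval was taken from the 0. A gene was called at a 2-fold ratio with 10 CPM in the higher class, and no p-value was computed. The count rule and the intervals were run on simulated independent Poisson counts. These hold no spread between the cells of a class, so the run cannot show how the intervals fare with it. All members were named, with up to 3 genes of each role of the list by highest CPM and the nearest profile to each member. One gene that this rule names is not reported here. Pvalb, Ryr2, Pln, Aven and Rabep2 were added after their values were seen or for their place on the genome. Alternatives covered the UMI minimum, mitochondrial and doublet filters, class bounds, thinned classes, free RNA, scaling, fold, CPM minimum and thinning. Tools were scanpy 1.11.5, scipy 1.17.1, numpy 2.4.6 and pandas 2.3.3 under Python 3.11.15. Sequences are from RefSeq and gene positions from GENCODE.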

Additional observations from a re-analysis of the deposited data

Results flagged for a closer look

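Signal of the 10 genes appeared in iMPC barcodes that no comparison counted as cells. In 48846 barcodes of 200 to 600 UMIs the genes summed to 1301 CPM from 27662 UMIs, where 3 counts would be 0.141 CPM. In 2636580 barcodes of 1 to 100 UMIs they summed to 932 CPM from 8167 UMIs, where 3 counts would be 0.342 CPM. In 191 barcodes with over 20% mitochondrial UMIs they summed to 3592 CPM from 11997 UMIs, where 3 counts would be 0.898 CPM. The kept iMPC cells summed to 1069 CPM, so the barcodes with high mitochondrial shares were above the kept cells and the smallest barcodes near them.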

How the results depend on the processing

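No paired analysis was possible because each group held 1 library, and for the same reason no replicate could be left out. The alternatives left 96 of the main values within their range and moved 25, none in direction. With classes drawn after thinning to 8000 UMIs, the members called higher numbered 8 from cells without Myog or Ckm to low-Myog cells (0 as reported) and 2 from Myog-high to Ckm-low cells (4 as reported). The median log2 ratio of Ckm-high over low-Myog cells was then 2.23 (3.15 as reported), the Casq2 share in Ckm-high cells 55.8% and the Atp2a2 share 29.6%. At most 10% mitochondrial UMIs gave shares of 64.1% and 34.1%, and class bounds of 10 UMIs 60.2% and 32.0%. Free RNA subtracted at 2.06% of a cell's UMIs, the ratio of median UMIs, gave 1 member called from Ckm-low to Ckm-high cells and a median log2 ratio of 3.29. At 10% it gave 1 there, 1 at the first step and a median of 4.10. The mean of each cell's CPM gave 1 at the last step, and leaving mitochondrial and ribosomal protein genes out of the total gave a median of 3.04. A fold of 1.5 gave 7 and 4 members at the last 2 steps, and a fold of 3 gave 0 from Myog-high to Ckm-low cells. Shares over all genes are given for the reported setting only, so member counts at other settings stand without one. The median share of cells with a UMI over the 10 genes was 21.8% in Myog-high and 53.4% in Ckm-high cells, 48.8% and 93.0% unthinned, 28.6% and 62.5% at 8000 UMIs and 5.97% and 30.5% for 2 UMIs or more. The fold of each gene between low-Myog and Myog-high cells ran from 1.44 to 3.16 with the thinned classes. Ryr1, Casq1 and Atp2a2 were under the fold of 2 there and so not called. The order of the genes kept 38 to 45 of 45 pairs. For single genes 141 values stayed and 83 moved, none in direction. Folds between neighbouring classes are not among these values, and some of them changed direction. From cells without Myog or Ckm to low-Myog cells, Cacna1s was 0.743-fold as reported and 6.25-fold with the thinned classes. At most 10% mitochondrial UMIs gave 0.948-fold for Casq1 and 0.992-fold for Casq2 there (1.05 and 1.15 as reported). Jph2 was 0.996-fold from Ckm-low to Ckm-high cells with the thinned classes (1.07 as reported). The causes of these differences were not tested. Depth limits Ryr3, which had 466 UMIs in Ckm-high cells and 253 in Myog-high cells, and Cacna1s, which had 55 in low-Myog cells.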
